A study of Mus musculus with 16 samples.

Results

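The proteasome genes examined here were the 49 of 41258 gene entries whose mouse symbol begins with Psm, a letter from a to g and a number, in a table of mouse embryonic stem cell expression. They were chosen by name and not by a cut on any measured value, though with earlier results of these data known. The name covers the 20S core particle (Psma and Psmb), the base and lid of the 19S cap (Psmc and Psmd), the separate activators (Psme), 1 regulator (Psmf1) and the assembly chaperones (Psmg1 to Psmg4, Psmd5, Psmd9 and Psmd10). Subunits and partners named otherwise, such as Adrm1 and Pomp, were read as a pathway list beside them.

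The proteasome is the barrel-shaped protease that degrades proteins tagged with ubiquitin. Its barrel has outer rings of alpha subunits, which gate entry, and inner rings of beta subunits, of which Psmb5, Psmb6 and Psmb7 carry the chymotrypsin-like, caspase-like and trypsin-like cutting sites. In immune cells and under interferon, Psmb8, Psmb9 and Psmb10 are built in instead of Psmb5, Psmb6 and Psmb7 to form the immunoproteasome, whose peptides feed antigen presentation. In embryonic stem cells the constitutive form is the usual one.

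The libraries came from mouse embryonic stem cells of strain 129/C57BL/6, described as early embryo. Wild-type cells (labelled v65) and Dgcr8-/- cells (labelled ES1), which lack a protein needed to cut primary microRNA transcripts, were each grown in 2iL, the medium with inhibitors and LIF that holds naive pluripotency, or differentiated in N2B27+bFGF+KSR for 48 h. There were 2 RNA-seq libraries in each of these 4 groups. The study's title names the miR-290/302 family and the dismantling of naive pluripotency as its subject. Each genotype was 1 cell line, so an effect of the missing Dgcr8 and a difference between lines cannot be told apart. The series calls its replicates biological, but what was repeated is not given in the sources used here, so p-values measure the spread between these libraries, which may be technical.

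Levels are given in FPKM, fragments per transcript length and per mapped fragments of the library, which is per length, so levels of different genes can be set side by side. Depth is not known in reads, and the smallest steps among low values put the libraries at 0.902 to 1.33 times the depth of the first wild-type 2iL library. Pearson's r between replicates over all tested genes was 0.987 to 0.991, a measure that does not show differences of scale. The knockout 2iL libraries had summed FPKM of 475200 and 511663. Summed FPKM was 533368 to 548369 in the wild-type libraries and 475200 to 511663 in the knockout libraries, so results of genotype are also given after scaling to equal totals. Dgcr8 itself was at 18.3 to 20.9 FPKM in wild type and 7.80 to 9.33 in the libraries labelled Dgcr8-/-, with a log2 difference of -0.95 in 2iL (adjusted p = 8.00e-06). The pluripotency gene Pou5f1 was at 695 to 990 FPKM throughout, but the cell state was not constant. Over 48 h Pou5f1, Sox2, Nanog, Zfp42 and Esrrb fell in both genotypes and Utf1 rose. Nanog went from 208 and 216 FPKM to 5.38 and 5.31 in wild type. In the knockout it went from 273 and 298 to 56.1 and 56.7. The formative-state markers Fgf5, Otx2, Pou3f1 and Dnmt3b summed to 111 and 101 FPKM in wild-type 2iL and 646 and 633 at 48 h. In the knockout they summed to 62.9 and 59.3 and to 249 and 240. Dnmt3b made up most of each sum, so the sums mainly follow that gene. At 48 h 3 of the 4 markers were lower in the knockout and 1, Otx2, was higher. Otx2 was then at 41.2 and 38.0 FPKM in the knockout and 26.9 and 26.7 in wild type. In bulk RNA, fewer cells of a type and less RNA per cell cannot be told apart.

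The starts of catalytic subunits and of the paired activator subunits are shown because their differences between genotypes in 2iL were not all of the same sign. Psmb8, Psmb9, Psme1 and Psme2 were higher in the knockout, and Psmb10 was lower, as were Psmb5 and Psmb6. RefSeq promoter windows for build GRCm38.p6 were matched for 41 of the 49 members. Those without a window were Psma8, Psmb1, Psmb2, Psmb7, Psmc3, Psmd3, Psmd7 and Psmg2. Each sequence runs 5′ to 3′ on the gene's strand from 250 bases before the annotated start to 30 bases after it, and capitals mark motif matches.
Psmb8, chr17:34197945-34198224, plus strand: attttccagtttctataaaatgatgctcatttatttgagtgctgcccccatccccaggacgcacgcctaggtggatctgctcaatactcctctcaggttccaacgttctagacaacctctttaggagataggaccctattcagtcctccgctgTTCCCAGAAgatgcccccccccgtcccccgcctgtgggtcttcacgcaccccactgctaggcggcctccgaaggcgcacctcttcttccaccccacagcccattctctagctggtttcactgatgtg
Psmb9, chr17:34187301-34187580, minus strand: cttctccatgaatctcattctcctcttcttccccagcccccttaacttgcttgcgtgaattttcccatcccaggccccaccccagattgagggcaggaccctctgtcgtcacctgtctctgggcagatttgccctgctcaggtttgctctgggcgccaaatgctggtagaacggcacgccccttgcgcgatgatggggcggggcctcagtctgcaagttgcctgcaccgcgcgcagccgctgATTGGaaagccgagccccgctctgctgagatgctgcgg
Psmb10, chr8:105938363-105938642, minus strand: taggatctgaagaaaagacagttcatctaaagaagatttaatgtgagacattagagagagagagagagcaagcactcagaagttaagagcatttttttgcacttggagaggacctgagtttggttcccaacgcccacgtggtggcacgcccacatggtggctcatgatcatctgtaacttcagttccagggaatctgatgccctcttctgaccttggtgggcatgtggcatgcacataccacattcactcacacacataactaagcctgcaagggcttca
Psmb5, chr14:54617966-54618245, minus strand: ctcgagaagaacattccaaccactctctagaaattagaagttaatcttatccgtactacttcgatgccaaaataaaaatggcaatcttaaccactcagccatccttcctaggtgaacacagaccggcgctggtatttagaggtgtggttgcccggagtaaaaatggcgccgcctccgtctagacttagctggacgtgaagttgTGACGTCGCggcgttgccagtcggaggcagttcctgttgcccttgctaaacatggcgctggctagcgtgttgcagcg
Psmb6, chr11:70525107-70525386, plus strand: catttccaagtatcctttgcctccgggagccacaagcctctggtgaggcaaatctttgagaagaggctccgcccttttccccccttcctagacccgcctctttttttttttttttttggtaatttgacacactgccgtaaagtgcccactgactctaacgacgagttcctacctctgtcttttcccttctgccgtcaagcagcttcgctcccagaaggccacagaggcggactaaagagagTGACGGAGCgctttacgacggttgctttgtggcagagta
Psme1, chr14:55578244-55578523, plus strand: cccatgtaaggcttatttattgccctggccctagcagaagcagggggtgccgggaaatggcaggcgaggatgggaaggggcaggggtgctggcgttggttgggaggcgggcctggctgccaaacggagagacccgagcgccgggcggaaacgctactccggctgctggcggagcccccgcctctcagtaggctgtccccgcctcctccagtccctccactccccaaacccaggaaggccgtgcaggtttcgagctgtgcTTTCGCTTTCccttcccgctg
Psme2, chr14:55591072-55591351, minus strand: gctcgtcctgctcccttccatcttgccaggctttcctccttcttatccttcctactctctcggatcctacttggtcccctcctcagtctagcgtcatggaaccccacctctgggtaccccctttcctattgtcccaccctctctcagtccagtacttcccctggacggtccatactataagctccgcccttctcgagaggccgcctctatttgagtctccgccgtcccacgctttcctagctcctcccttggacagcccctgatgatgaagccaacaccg

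Motifs were searched on both strands in windows of 300 bases, 250 before to 50 after the start. The interferon-stimulated response element was written as GAAA, any pair of bases and GAAA again, the gamma-activated site TTCNNNGAA, the antioxidant response element core TGACNNNGC, and the CCAAT box as its name spells it. The Psmb8 window held TTCCCAGAA, a gamma-activated site match, 97 bases before the start, and the Psme1 window held TTTCGCTTTC, the response element read on the other strand. Psmb5 held TGACGTCGC and Psmb6 TGACGGAGC, both matches to the antioxidant response element core. Psmb9 held ATTGG, that box read on the other strand. None of the motifs' letters occurred in the Psmb10 and Psme2 windows. The response element was in 11.36% of the member windows (Psmb3, Psmd4, Psmd9, Psme1 and Psmg4) and in 3.44% of all 32851 windows. The other shares were 6.82% of member windows against 8.3% of all for the gamma-activated site, 13.64% against 12.39% for the antioxidant response element core, and 31.82% against 37.41% for the CCAAT box. Psmb9 and the peptide transporter gene Tap1 start 226 bases apart on opposite strands of chromosome 17, so their windows share 275 bases. A match is a run of letters, and no binding was measured.

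In all 8 libraries the 31 subunits that make up the core and cap of the ordinary 26S proteasome (Psma1 to Psma7, Psmb1 to Psmb7, and the base and lid Psmc and Psmd subunits) were abundant transcripts, with means of 72.0 FPKM (Psmd14) to 323 FPKM (Psmb6). Within the alpha ring Psma7 was highest at a mean of 216.502 FPKM and Psma8 lowest at 12.7. Among the structural beta subunits the means ran from 146 FPKM (Psmb1) to 278 FPKM (Psmb3), among the base ATPases from 82.5 (Psmc2) to 190.252 (Psmc3), among the other base subunits from 87.6 (Psmd1) to 173 (Psmd4), and in the lid from 72.0 (Psmd14) to 139 (Psmd7). The order of levels was much alike in every group, with Spearman's rho of 0.871 to 0.979 over these 31 subunits between pairs of groups, which share gene lengths and annotation, given as a description. Assembly chaperones ran lower, from 10.7 FPKM (Psmd9) to 65.2 (Psmg1), and the activators from 1.07 (Psme2b) to 84.9 (Psme3). The immunoproteasome subunits ran from 0.823 FPKM (Psmb9) to 13.3 (Psmb10). All 49 genes together took 1.07% and 1.07% of the FPKM of the wild-type 2iL libraries and 1.06% and 1.05% at 48 h. In the knockout they took 0.926% and 0.929% in 2iL and 0.992% and 0.982% at 48 h, below every wild-type library.

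**Figure D1:**
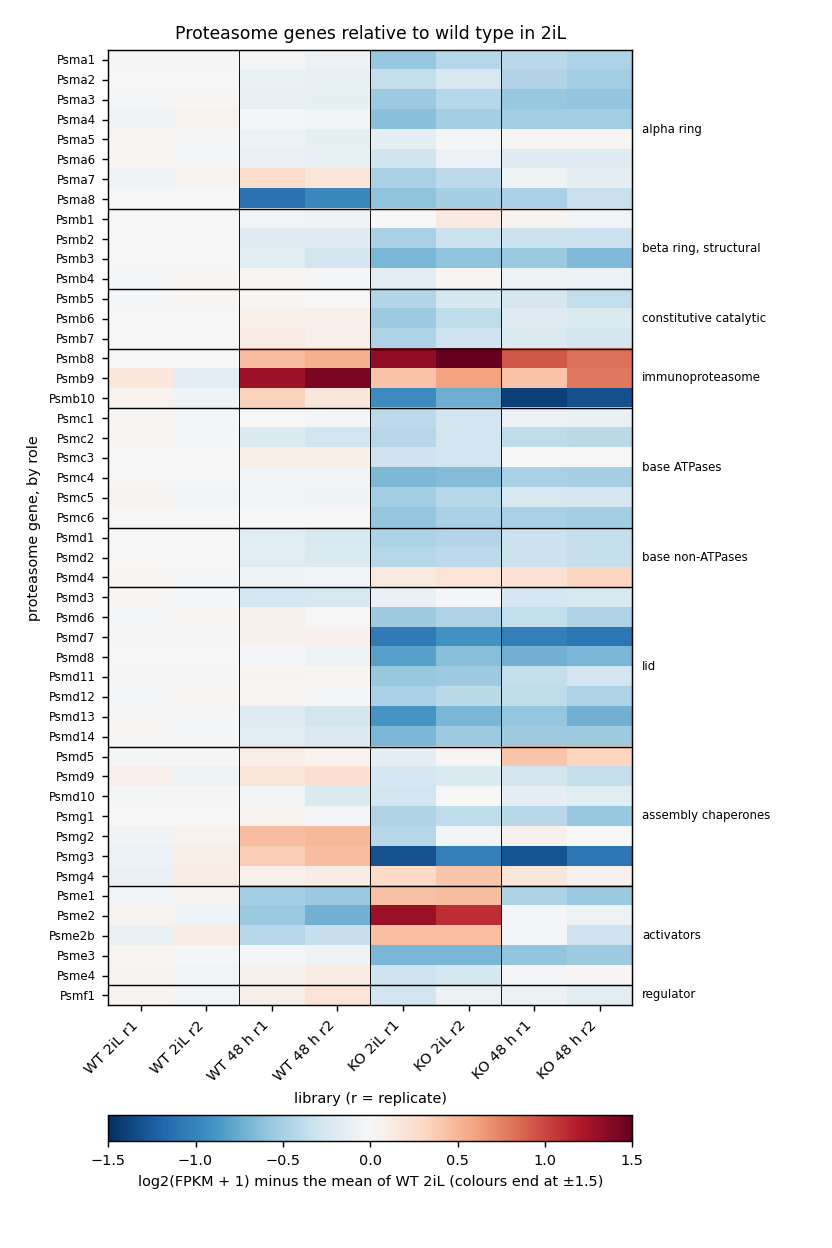
Each line is 1 of the 48 tested proteasome genes, grouped by role, and each column 1 of the 8 libraries; colour is log2(FPKM + 1) minus the mean of the wild-type 2iL libraries, ending at 1.5 on either side. Most core and cap subunits are blue in the 4 knockout libraries, while Psmb8, Psme1 and Psme2 are red in knockout 2iL.

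Differences were tested with limma on log2(FPKM + 1) over the 13166 genes that reached 1 FPKM in 2 or more of the libraries, and a gene was called where the adjusted p over all of them was below 0.05. Of the 49 members 48 were tested, and Psmb11 was not. Psmb8 reached 1 FPKM only in knockout 2iL and Psmb9 only in wild type at 48 h, so their differences with those groups were set by the filter. The counts of members below include them. Psmb8 is among those higher in knockout 2iL and those that fell over 48 h in the knockout. Psmb9 is among those that rose in wild type and those lower in the knockout at 48 h. The added 1 understates the differences of genes at low FPKM. The comparisons share libraries: each group enters a pair of them.

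In 2iL, knockout cells had less RNA of most proteasome subunits than wild-type cells. Of the 48 members 33 were lower and 7 higher, where 32.8% of all tested genes were lower, 30.6% higher and 63.4% called either way. The members' median difference was -0.40 log2 and that of all tested genes -0.02. Of the 31 core and cap subunits 26 were lower and only Psmd4 was higher, with a median of -0.44. Highly expressed genes as a class also ran lower: among the 918 tested genes with means in the range of these 31 (72.0 to 323 FPKM), a band chosen after the values were seen, 64.8% were lower and 15% higher, with a median of -0.30. After scaling to equal totals, an alternative chosen after the data were seen, 31 members were lower and 8 higher and the core median was -0.29, while the median of all genes moved to 0.10. With quantile normalization 28 were lower and 10 higher, with a core median of -0.20. Without knockout 2iL replicate 2 the count of higher members was 3.

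At 48 h the knockout was again lower for most subunits. Of the 48 members 30 were lower and 4 higher, against 38.5% lower, 33.4% higher and 71.8% called either way among all tested genes. The medians were -0.30 log2 for the members, -0.33 for the 31 core and cap subunits, of which 22 were lower and 1 higher, and -0.05 for all genes. In the band of 918 genes 57.3% were lower and 26.3% higher, with a median of -0.24. The size of this difference depended on the scaling: with equal totals 25 members were lower and 11 higher and the core median was -0.16, and with quantile normalization 24 were lower and 13 higher and it was -0.14. In both conditions 27 members were lower in the knockout, and Psmd4 and Psme2 were higher in both. The share of all tested genes called in both conditions was not counted, so these joint counts are a description only.

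Over 48 h the proteasome genes moved little as a set in either genotype. In wild type 6 members rose and 12 fell, against 30.9% and 25.6% of all tested genes and 56.5% called either way, with a member median of -0.04 log2 and an all-gene median of 0.03. In the knockout 11 rose and 7 fell, against 26.5% and 21.9% and 48.4% either way, with medians of 0.06 and 0.03. That member median was -0.0036 without knockout 2iL replicate 1, 0.13 without knockout 2iL replicate 2, 0.0056 with median-ratio scaling and 0.099 at equal totals. The 31 core and cap subunits counted 1 up and 8 down in wild type (median -0.04) and 8 up and 2 down in the knockout, where the median was 0.08, or -0.0012 and 0.13 without knockout 2iL replicate 1 and 2. In the band of 918 genes 22% rose and 37.6% fell in wild type and 26.9% rose and 24.6% fell in the knockout. Leaving out 1 library changed the wild-type count: 2 rose and 7 fell without wild-type 2iL replicate 1, 2 and 9 without wild-type 48 h replicate 1, and 3 and 6 without wild-type 48 h replicate 2. Scaling changed it too, to 11 up and 14 down with equal totals and 5 up and 22 down with median-ratio scaling. In the knockout equal totals gave 21 up and 7 down and median-ratio scaling 9 up and 10 down, and without knockout 2iL replicate 2 the count that rose was 17.

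The difference between the 48 h changes was tested as an interaction. It was positive, meaning a higher value of the knockout's change, for 14 members and negative for 6, against 21.1% and 21.7% of all tested genes and 42.9% either way. The median over the 48 members was 0.09 log2 and over all tested genes -0.01. The member median was 0.021 without knockout 2iL replicate 1, 0.16 without knockout 2iL replicate 2 and 0.018 with quantile normalization. Of the 31 core and cap subunits 11 were positive and 0 negative, with 30.9% positive and 14.5% negative in the band of 918 genes. The negative ones were Psmb8, Psmb9, Psmb10, Psme1, Psme2 and the chaperone Psmd9, of which Psmb8 and Psmb9 had passed the filter only through the group where they were high. The count was 12, with 6 positive, without the intensity trend, and 8, with 4 positive, without wild-type 48 h replicate 2. It was 13 without either wild-type 2iL library, 11 without wild-type 48 h replicate 1 and 11 without knockout 48 h replicate 1, and without knockout 48 h replicate 2 the positive ones were 8. Those positive under every setting run were Psma8, Psmc4, Psmd1 and Psmd2.

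**Figure D2:**
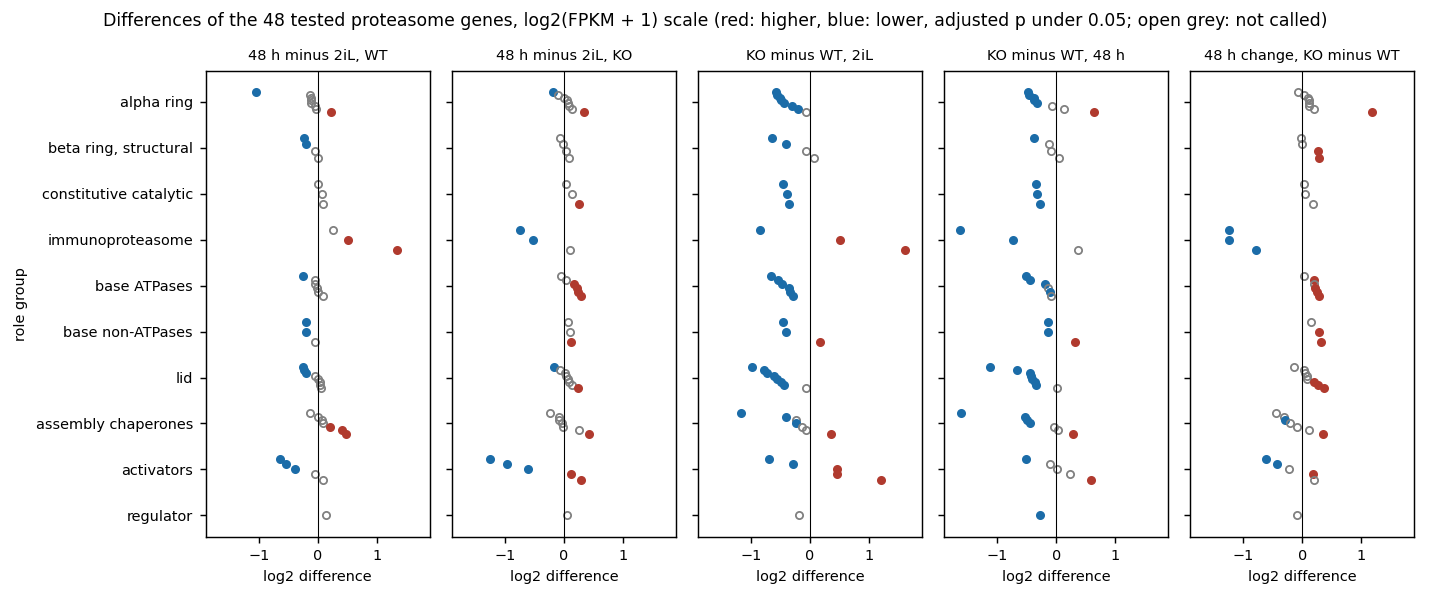
Points are the log2(FPKM + 1) differences of single proteasome genes in 5 comparisons, arranged by role; red points were called higher, blue points lower, and open grey points were not called at an adjusted p of 0.05. Base ATPases and lid subunits lie to the lower side in both genotype comparisons, whereas immunoproteasome and activator genes spread to both sides.

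The constitutive cutting subunits were lower in the knockout in both conditions. Psmb5, the chymotrypsin-like subunit, was at 192 and 201 FPKM in the wild-type 2iL libraries, 199 and 196 in wild type at 48 h, 144 and 164 in the knockout in 2iL and 164 and 152 in the knockout at 48 h. Both knockout pairs lay below every wild-type library, with a difference of -0.35 ± 0.07 (SE, adjusted p = 0.00354) in 2iL and -0.32 ± 0.07 (SE, adjusted p = 0.00436) at 48 h. Psmb6, the caspase-like subunit and the most abundant proteasome transcript here, was at 353 and 357 FPKM in the wild-type 2iL libraries, 373 and 373 in wild type at 48 h, 243 and 273 in the knockout in 2iL and 310.5 and 305 in the knockout at 48 h. It was lower in the knockout by a log2 difference of -0.46 ± 0.06 (SE, adjusted p = 0.000278) in 2iL and -0.28 ± 0.06 (SE, adjusted p = 0.00297) at 48 h, and it rose over 48 h in the knockout by a log2 difference of 0.26 ± 0.06 (SE, adjusted p = 0.0075). Psmb7, the trypsin-like subunit, was at 219.98 and 221 FPKM in the wild-type 2iL libraries, 239.6 and 232 in wild type at 48 h, 159.8 and 177 in the knockout in 2iL and 189 and 183 in the knockout at 48 h. Its knockout libraries again lay below all wild-type ones, with differences of -0.39 ± 0.05 (SE, adjusted p = 0.000595) in 2iL and -0.34 ± 0.05 (SE, adjusted p = 0.000913) at 48 h. The calls of Psmb5 in both conditions and of Psmb6 at 48 h were lost with quantile normalization (adjusted p = 0.206, 0.11 and 0.277). The 48 h changes in wild type were 0.01 (95% confidence interval -0.15 to 0.17, adjusted p = 0.916) for Psmb5, 0.07 (95% confidence interval -0.06 to 0.20, adjusted p = 0.311) for Psmb6 and 0.10 (95% confidence interval -0.03 to 0.22, adjusted p = 0.177) for Psmb7. In the knockout they were 0.04 (95% confidence interval -0.13 to 0.20, adjusted p = 0.688) for Psmb5 and 0.14 (95% confidence interval 0.01 to 0.27, adjusted p = 0.066) for Psmb7, whose knockout 48 h pair lay above its knockout 2iL pair. Of 17 alternatives 3 called Psmb7 higher over 48 h in the knockout and 5 in wild type, and 2 called Psmb6 higher in wild type.

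The immunoproteasome subunits were scarce, and Psmb8 was highest in knockout 2iL while Psmb9 and Psmb10 were highest in wild type at 48 h. Psmb10, which takes the place of Psmb7, made up 74.4% to 100% of their summed FPKM in each library. It was at 18.0 and 16.5 FPKM in the wild-type 2iL libraries, 22.2 and 19.5 in wild type at 48 h, 8.42 and 9.93 in the knockout in 2iL and 5.90 and 6.29 in the knockout at 48 h. All 4 knockout libraries lay below all wild-type ones, and the knockout 48 h pair was the lowest. Psmb10 was lower in the knockout by a log2 difference of -0.84 ± 0.10 (SE, adjusted p = 0.000217) in 2iL and of -1.62 ± 0.10 (SE, adjusted p = 5.74e-06) at 48 h, and it fell over 48 h in the knockout by a log2 difference of -0.52 ± 0.10 (SE, adjusted p = 0.00388). In wild type its 48 h pair lay above its 2iL pair without passing the test, at 0.26 (95% confidence interval 0.03 to 0.49, adjusted p = 0.0522), and 6 of the alternatives called it higher, with an adjusted p of 0.0204 at equal totals. The 48 h changes of the genotypes differed by a log2 difference of -0.78 ± 0.14 (SE, adjusted p = 0.00356), a call that held under every setting run.

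Psmb8, the immune counterpart of Psmb5, was listed at 0 in both wild-type 2iL libraries. Its values were 0.389 and 0.452 FPKM in wild type at 48 h, 1.52 and 2.72 in the knockout in 2iL and 0.914 and 0.767 in the knockout at 48 h. The knockout 2iL pair was the highest and the groups did not overlap. Psmb8 entered the test only through that pair, so the differences that involve knockout 2iL had to appear and are given as a description with no test, and no fold is given against a listed 0. On the log2(FPKM + 1) scale they were 1.61 for knockout against wild type in 2iL, -0.74 for the 48 h change in the knockout and -1.24 for that change minus the wild type's. At 48 h the genotypes' difference was not called, at 0.37 (95% confidence interval -0.04 to 0.78, adjusted p = 0.0914). Over 48 h Psmb8 was called higher in wild type (log2 difference 0.51 ± 0.17 SE, adjusted p = 0.0413). That call was lost without any 1 wild-type library or either knockout 48 h library (adjusted p of 0.0576 to 0.151) and without the filter on low values (0.0818).

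Psmb9, the immune counterpart of Psmb6, was at 0.251 FPKM in 1 wild-type 2iL library and listed at 0 in the other. It reached 1.71 and 1.98 FPKM in wild type at 48 h, 0.502 and 0.694 in the knockout in 2iL and 0.510 and 0.941 in the knockout at 48 h. Only the wild-type 48 h pair was above 1 FPKM, and Psmb9 entered the test through it, so the differences that involve that pair are given as a description with no test. On the log2(FPKM + 1) scale they were 1.34 for the 48 h change in wild type, -0.73 for knockout against wild type at 48 h and -1.24 for the knockout's 48 h change minus the wild type's. The change in the knockout was not called, at 0.10 (95% confidence interval -0.29 to 0.49, adjusted p = 0.638). In 2iL the knockout was called higher (log2 difference 0.51 ± 0.16 SE, adjusted p = 0.0284). That call was lost without wild-type 2iL replicate 2 (adjusted p = 0.155), without knockout 2iL replicate 2 (0.126) and without the filter (0.0616).

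Set against the constitutive forms, the immune subunits were a small share of the catalytic beta transcripts. Psmb8, Psmb9 and Psmb10 together were 2.32% and 2.07% of the summed FPKM of the 6 catalytic genes in wild-type 2iL, 2.91% and 2.67% in wild type at 48 h, 1.87% and 2.13% in knockout 2iL and 1.09% and 1.24% in the knockout at 48 h. The group means were 2.2% ± 0.177 (SD, n = 2), 2.79% ± 0.168, 2% ± 0.179 and 1.16% ± 0.102. The wild-type 48 h pair was the highest and the knockout 48 h pair the lowest, and the 2iL pairs of the genotypes overlapped. The difference was 0.588 percentage points for the 48 h change in wild type, -0.836 for that in the knockout and -1.62 for knockout against wild type at 48 h, each with an exact two-sided permutation p = 0.3333, the smallest that 2 against 2 libraries allow. In 2iL it was -0.199 points (exact permutation p = 0.667). Taken pair by pair, Psmb10 was 6.93% to 8.48% of its sum with Psmb7 in wild type and 3.02% to 5.31% in the knockout, whereas Psmb8 reached at most 1.63% of its sum with Psmb5, in knockout 2iL. Psmb11, the thymus form, was listed at 0 in every library other than wild-type 48 h replicate 1, at 0.0121 FPKM, and of its cell type's markers Foxn1 was at 0 to 0.0396 FPKM and Ccl25 passed the filter, with a list sum of 4.71 to 19.5 FPKM.

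**Figure D3:**
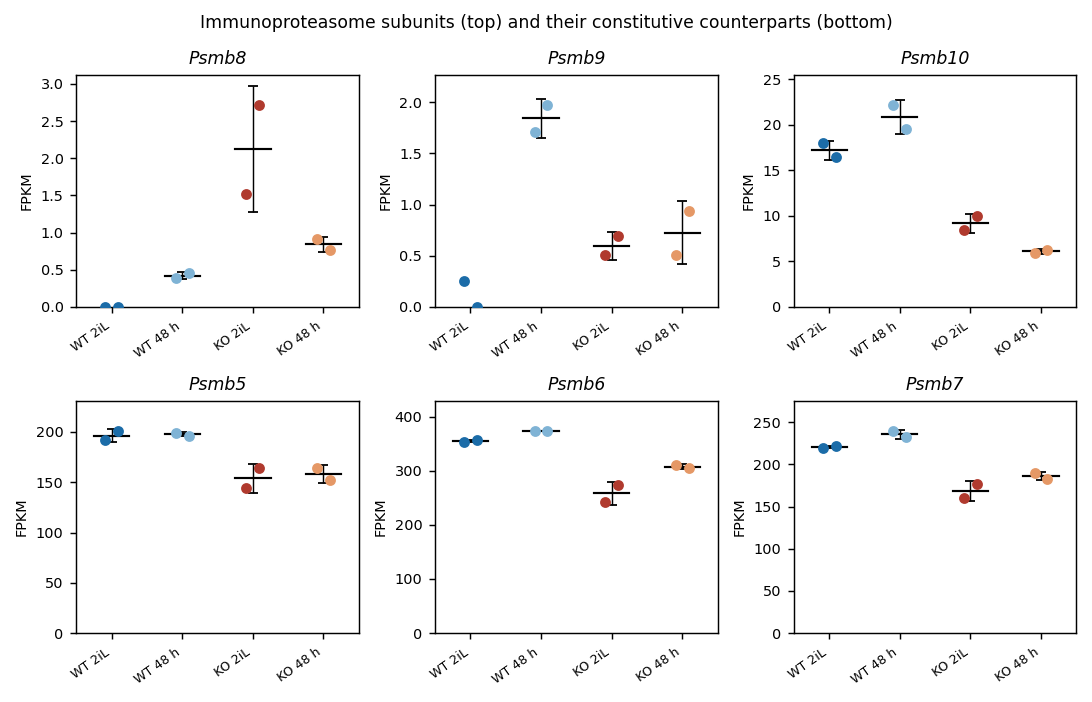
FPKM of the immunoproteasome subunits Psmb8, Psmb9 and Psmb10 (top) and of their constitutive counterparts Psmb5, Psmb6 and Psmb7 (bottom) in the 4 groups; points are libraries, lines group means and bars SD, with no mean where a library is listed at 0. Psmb10 is lowest in the knockout at 48 h, Psmb8 highest in knockout 2iL and Psmb9 highest in wild type at 48 h.

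Immune cells carry the immunoproteasome, and their markers were read beside these genes. Of 8 blood and immune markers, 3 passed the filter (Cd3e, Cd74 and Cd68), and the summed FPKM of the list was 12.99 and 13.15 in wild-type 2iL, 4.75 and 5.25 in wild type at 48 h, 32.3 and 29.4 in knockout 2iL and 39.4 and 37.3 in the knockout at 48 h. Ptprc, the gene of the common leukocyte antigen, was at most 0.0405 FPKM, and Lyz2 was listed at 0 in every library other than 1 at 0.0449. Cd3e, a T cell receptor component, was at 0.226 to 0.949 FPKM in wild type and 11.998 to 16.7 in the knockout, and Cd74, the class II invariant chain, at 0.426 to 0.694 and 1.505 to 3.18. Cd68, a macrophage marker, was at 2.18 to 11.1 FPKM in wild type and 10.5 to 21.1 in the knockout. Of 8 fibroblast and feeder markers 2 passed (Thy1 and Dcn), with sums of 1.84 to 2.69 FPKM in 2iL and 11.5 to 18.2 at 48 h. The part of the list sums in the Psmb8, Psmb9 and Psmb10 differences was not tested.

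The activators divided by kind. Psme1 and Psme2 form the interferon-inducible activator ring that docks on the core, and both fell over 48 h in both genotypes and were higher in knockout 2iL. Psme1 was at 54.3 and 57.4 FPKM in the wild-type 2iL libraries, 38.9 and 37.7 in wild type at 48 h, 76.3 and 77.3 in the knockout in 2iL and 39.9 and 37.8 in the knockout at 48 h. The knockout 2iL pair was highest, and the 48 h pairs of the genotypes overlapped. The 48 h change was -0.53 ± 0.05 (SE, adjusted p = 7.32e-05) in wild type and -0.97 ± 0.05 (SE, adjusted p = 6.82e-06) in the knockout, and the knockout exceeded wild type by a log2 difference of 0.45 ± 0.05 (SE, adjusted p = 0.000149) in 2iL, while at 48 h the difference was 0.02 (95% confidence interval -0.09 to 0.13, adjusted p = 0.744). Psme2 was at 47.2 and 44.1 FPKM in the wild-type 2iL libraries, 30.6 and 27.3 in wild type at 48 h, 113 and 99.8 in the knockout in 2iL and 44.7 and 43.2 in the knockout at 48 h. No group overlapped another apart from knockout 48 h and wild-type 2iL. It fell by a log2 difference of -0.64 ± 0.08 (SE, adjusted p = 0.000359) in wild type and -1.26 ± 0.08 (SE, adjusted p = 1.93e-05) in the knockout, and was higher in the knockout by a log2 difference of 1.205 ± 0.08 (SE, adjusted p = 1.59e-05) in 2iL and 0.59 ± 0.08 (SE, adjusted p = 0.000361) at 48 h. The fall was larger in the knockout for both, with interactions of -0.44 ± 0.07 (SE, adjusted p = 0.00207) for Psme1 and -0.62 ± 0.11 (SE, adjusted p = 0.00402) for Psme2. These calls held under every setting run.

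Reads of Psme2 and its near-identical copy Psme2b can be shared, and Emc9 overlaps Psme1, so these values are uncertain to that extent. Psme2b was at 0.524 to 1.82 FPKM, fell over 48 h in the knockout (log2 difference -0.61 ± 0.13 SE, adjusted p = 0.0066), and was called lower over 48 h in wild type (log2 difference -0.39, adjusted p = 0.0359) and higher in knockout 2iL (log2 difference 0.45, adjusted p = 0.0179). Of those, the wild-type call was lost under 7 alternatives and the 2iL call without replicate 1 of wild-type 2iL (adjusted p = 0.101) or without either knockout 2iL library (0.0648 and 0.0591).

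Psme3, the nuclear activator that works without interferon, moved the other way by genotype. It was at 107 and 102 FPKM in the wild-type 2iL libraries, 102 and 98.7 in wild type at 48 h, 64.3 and 64.2 in the knockout in 2iL and 69.1 and 71.7 in the knockout at 48 h. All knockout libraries lay below all wild-type ones, by a log2 difference of -0.69 ± 0.04 (SE, adjusted p = 1.28e-05) in 2iL and -0.51 ± 0.04 (SE, adjusted p = 3.11e-05) at 48 h. Psme1 and Psme2 were a larger part of the 3 genes' summed FPKM in knockout 2iL, at 74.7% and 73.4%, than in wild-type 2iL, at 48.8% and 49.9%. At 48 h the part was 55.0% and 53.1% in the knockout and 40.4% and 39.7% in wild type, a ratio chosen after the values were seen (exact permutation p = 0.3333 for each comparison). Psme4, the large single-chain activator, was at 34.5 to 47.2 FPKM, lower in knockout 2iL (log2 difference -0.29, adjusted p = 0.00168) and higher at 48 h than in 2iL in the knockout (log2 difference 0.29, adjusted p = 0.00262). Psmf1, a regulator that binds the core and can inhibit it, was at 15.4 to 21.9 FPKM and was called once, lower in the knockout at 48 h (log2 difference -0.27, adjusted p = 0.0167). That call was lost at equal totals (adjusted p = 0.16) and without wild-type 48 h replicate 2 (0.0977) or knockout 48 h replicate 2 (0.0867).

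In the alpha ring 7 of 8 genes were lower in knockout 2iL and 5 at 48 h, where Psma8 was higher. The shares lower were 64.8% and 57.3% in the band of 918 genes and 32.8% and 38.5% of all tested genes. Psma8, the testis form that takes the place of Psma7, was at 17.8 and 17.8 FPKM in the wild-type 2iL libraries, 7.70 and 8.58 in wild type at 48 h, 11.3 and 12.3 in the knockout in 2iL and 12.4 and 14.0 in the knockout at 48 h. It was lowest in wild type at 48 h, and the knockout lay below wild type in 2iL and above it at 48 h. The 48 h change was -1.04 ± 0.08 (SE, adjusted p = 3.11e-05) in wild type and 0.15 (95% confidence interval -0.04 to 0.33, adjusted p = 0.171) in the knockout, with an interaction of 1.19 ± 0.11 (SE, adjusted p = 0.000213). Psma8 was lower in the knockout in 2iL (log2 difference -0.55, adjusted p = 0.000699) and higher at 48 h (log2 difference 0.64, adjusted p = 0.000256), and all its calls held under every setting run. Male germ cell markers were read beside it: the sum of Ddx4, Sycp3 and Dazl was 4.89 and 5.27 FPKM in wild-type 2iL, 12.3 and 14.6 in wild type at 48 h, 11.2 and 10.7 in knockout 2iL and 6.07 and 5.45 in the knockout at 48 h. The markers differed: Ddx4 and Sycp3 were highest in wild type at 48 h, whereas Dazl was highest in knockout 2iL, at 7.23 and 7.35 FPKM. The part of these markers in the Psma8 values was not tested.

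Psma7, the ubiquitous form, was at 217 and 235 FPKM in the wild-type 2iL libraries, 272 and 255 in wild type at 48 h, 161 and 171 in the knockout in 2iL and 215 and 206 in the knockout at 48 h. It was the only member called higher at 48 h in both genotypes, by a log2 difference of 0.22 (adjusted p = 0.0131) in wild type and 0.34 (adjusted p = 0.00253) in the knockout. The wild-type call was lost on leaving out replicate 1 of wild-type 2iL (0.0842 after adjustment) or 48 h replicate 1 (0.0897). Psma8 made up 7.58% and 7.05% of the summed FPKM of Psma7 and Psma8 in wild-type 2iL and 2.75% and 3.25% in wild type at 48 h, and 5.48% to 6.72% in the knockout. Psma1, Psma2, Psma3 and Psma4 were lower in the knockout in both conditions, by a log2 difference of -0.30 to -0.57 in 2iL and -0.37 to -0.48 at 48 h. The 2iL call of Psma2 was lost with quantile normalization (adjusted p = 0.0676). Psma6 was lower in 2iL by a log2 difference of -0.20 (adjusted p = 0.0326), a call that 11 alternatives lost, among them leaving out either wild-type 2iL library (adjusted p = 0.126 and 0.08) and equal totals (0.355), and with quantile normalization its difference turned to 0.0855. Psma5 was not called in any of the comparisons.

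Among the structural beta subunits, which hold the inner rings together without cutting sites, Psmb3 was the most abundant. Psmb3 was at 355 and 352 FPKM in the wild-type 2iL libraries, 312 and 293 in wild type at 48 h, 219.7 and 232 in the knockout in 2iL and 240.3 and 223 in the knockout at 48 h. Every knockout library lay below every wild-type library, by a log2 difference of -0.64 ± 0.05 (SE, adjusted p = 4.95e-05) in 2iL and, at 48 h, of -0.38 (adjusted p = 0.000487). Psmb2 was lower in knockout 2iL by a log2 difference of -0.40 (adjusted p = 0.00048). Both fell over 48 h in wild type, by a log2 difference of -0.20 (adjusted p = 0.0174) for Psmb2 and -0.22 (adjusted p = 0.00971) for Psmb3, calls lost for Psmb2 without any 1 wild-type library (adjusted p of 0.058 to 0.0764) and for Psmb3 without wild-type 2iL replicate 1 (0.0505) or 48 h replicate 2 (0.0735). Psmb1 and Psmb4 were not called in any comparison. Psmb1 ranged from 139.7 to 160.01 FPKM over all 8 libraries, and its knockout difference in 2iL was 0.07 (95% confidence interval -0.07 to 0.20, adjusted p = 0.336).

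The 6 ATPases of the base, the ring that unfolds substrates, were all lower in knockout 2iL, by a log2 difference of -0.30 (Psmc3) to -0.66 (Psmc4). With quantile normalization the calls of Psmc1 and Psmc3 were lost (adjusted p = 0.18 and 0.374). At 48 h 4 were lower, and 4 of the 6 rose over 48 h in the knockout and 0 in wild type. In the band of 918 genes 64.8% were lower in knockout 2iL and 57.3% at 48 h, and 26.9% rose in the knockout and 22% in wild type. Over all tested genes these shares were 32.8%, 38.5%, 26.5% and 30.9%. Psmc4 was at 219.6 and 219.99 FPKM in the wild-type 2iL libraries, 214 and 213 in wild type at 48 h, 137 and 139.9 in the knockout in 2iL and 157 and 156 in the knockout at 48 h. Its knockout pairs lay below all wild-type libraries, by a log2 difference of -0.66 ± 0.03 (SE, adjusted p = 5.77e-06) in 2iL and, at 48 h, of -0.45 (adjusted p = 1.86e-05). It rose over 48 h in the knockout by a log2 difference of 0.17 (adjusted p = 0.00456), and the genotypes' changes differed by a log2 difference of 0.22 ± 0.05 (SE, adjusted p = 0.0098). Psmc3 rose in the knockout by a log2 difference of 0.29 (adjusted p = 0.000439) and was lower than wild type at 48 h by a log2 difference of -0.10 (adjusted p = 0.0325), a difference that turned to 0.0646 at equal totals and to 0.1113, called higher, with quantile normalization. Another 9 alternatives lost that call. Psmc6 was lower in the knockout at 48 h by a log2 difference of -0.51 (adjusted p = 3.74e-05), and Psmc2, the lowest of the ring, fell in wild type by a log2 difference of -0.25 (adjusted p = 0.00924), a call lost on leaving out replicate 1 of wild-type 2iL (0.0575 after adjustment) or 48 h replicate 2 (0.0649).

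The other base subunits divided. Psmd1 and Psmd2, the large scaffolds of the base, fell over 48 h in wild type, by a log2 difference of -0.21 (adjusted p = 0.00314) for Psmd1 and -0.20 (adjusted p = 0.00251) for Psmd2. Both were lower in knockout 2iL, by a log2 difference of -0.46 (adjusted p = 5.18e-05) and -0.41 (adjusted p = 6.36e-05). Their interactions were 0.32 (adjusted p = 0.00321) and 0.28 (adjusted p = 0.00442), called under every setting run. At 48 h their small differences from wild type, -0.14 (adjusted p = 0.0149) and -0.13 (adjusted p = 0.0145), turned positive at equal totals (0.027 and 0.0344) and with quantile normalization (0.0459 and 0.1042), and both calls were lost without wild-type 48 h replicate 1 or knockout 48 h replicate 2. Psmd4, a receptor for ubiquitin chains, went against the rest. It was at 165 and 158 FPKM in the wild-type 2iL libraries, 156 and 156 in wild type at 48 h, 178 and 186 in the knockout in 2iL and 187 and 202 in the knockout at 48 h. All knockout libraries lay above all wild-type ones, by a log2 difference of 0.17 ± 0.05 (SE, adjusted p = 0.0188) in 2iL and 0.31 ± 0.05 (SE, adjusted p = 0.000903) at 48 h. The 2iL call was lost on leaving out replicate 2 of wild-type 2iL (0.105 after adjustment) or of knockout 2iL (0.0695), and the 48 h call held under every setting run.

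The lid, which removes ubiquitin before degradation, had 7 of 8 subunits lower in the knockout in 2iL and 7 of 8 at 48 h. Beside this, 64.8% and 57.3% of the band of 918 genes and 32.8% and 38.5% of all tested genes were lower. Psmd7, the partner of the deubiquitinase Psmd14, differed most within the lid. It was at 186 and 182 FPKM in the wild-type 2iL libraries, 192 and 193 in wild type at 48 h, 88.1 and 97.4 in the knockout in 2iL and 89.8 and 86.4 in the knockout at 48 h. The knockout values were near 0.505 of wild type in 2iL and 0.46 at 48 h, with no overlap, at -0.99 ± 0.05 (SE, adjusted p = 7.04e-06) and -1.12 ± 0.05 (SE, adjusted p = 1.96e-06). Neither genotype's 48 h change was called, at 0.06 (95% confidence interval -0.06 to 0.19, adjusted p = 0.346) in wild type and -0.07 (95% confidence interval -0.20 to 0.05, adjusted p = 0.304) in the knockout. Psmd7 was 20.5% to 22.8% of the summed lid FPKM in wild type and 14.5% to 15.8% in the knockout, a ratio chosen after the values were seen. Psmd14 itself was lower by a log2 difference of -0.61 (adjusted p = 5.56e-05) in 2iL and, at 48 h, of -0.34 (adjusted p = 0.000841).

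Psmd8 was at 110.2 and 110.5 FPKM in the wild-type 2iL libraries, 109 and 105 in wild type at 48 h, 62.3 and 70.5 in the knockout in 2iL and 66.7 and 68.5 in the knockout at 48 h. It was lower in the knockout by a log2 difference of -0.73 (adjusted p = 4.74e-05) in 2iL and, at 48 h, of -0.65 (adjusted p = 5.12e-05). Psmd13 was at 122 and 119 FPKM in the wild-type 2iL libraries, 105 and 99.1 in wild type at 48 h, 64.6 and 74.7 in the knockout in 2iL and 80.2 and 72.5 in the knockout at 48 h. Its knockout libraries lay below all wild-type ones, by a log2 difference of -0.79 (adjusted p = 0.000119) in 2iL and, at 48 h, of -0.42 (adjusted p = 0.00228), while its interaction of 0.37 (adjusted p = 0.0342) was lost under 9 of 16 alternatives. Psmd3 was the exception in the lid. It was at 124 and 120.2 FPKM in the wild-type 2iL libraries, 101 and 103 in wild type at 48 h, 113 and 119 in the knockout in 2iL and 102 and 104 in the knockout at 48 h. It fell over 48 h in wild type by a log2 difference of -0.25 (adjusted p = 0.00136) and in the knockout by a log2 difference of -0.17 (adjusted p = 0.0109), and its genotype difference in 2iL was not called at -0.07 (95% confidence interval -0.16 to 0.03, adjusted p = 0.188). The knockout fall was lost without knockout 48 h replicate 1 (adjusted p = 0.0677).

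The assembly chaperones, which guide subunits into place and leave the finished particle, did not move in one direction. Psmg3, which pairs with Psmg4 in building the alpha ring, was at 27.3 and 30.8 FPKM in the wild-type 2iL libraries, 37.7 and 40.5 in wild type at 48 h, 11.2 and 13.7 in the knockout in 2iL and 11.3 and 13.2 in the knockout at 48 h. The knockout lay below wild type in both conditions, by a log2 difference of -1.16 ± 0.11 (SE, adjusted p = 9.92e-05) in 2iL and -1.61 ± 0.11 (SE, adjusted p = 1.33e-05) at 48 h. It rose over 48 h in wild type by a log2 difference of 0.42 (adjusted p = 0.0166), a call lost on leaving out replicate 1 of wild-type 2iL (0.0948 after adjustment) or 48 h replicate 2 (0.0849). Psmg4 was at 38.6 and 45.1 FPKM in the wild-type 2iL libraries, 43.7 and 45.05 in wild type at 48 h, 51.1 and 56.1 in the knockout in 2iL and 47.2 and 43.9 in the knockout at 48 h. It was higher in knockout 2iL by a log2 difference of 0.35 (adjusted p = 0.00758), against the direction of its partner, and at 48 h the groups overlapped.

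Psmg1 and Psmg2 form the other chaperone pair. Psmg1 was lower in the knockout by a log2 difference of -0.42 (adjusted p = 0.000603) in 2iL and, at 48 h, of -0.50 (adjusted p = 0.00017). Psmg2 was at 29.0 and 31.5 FPKM in the wild-type 2iL libraries, 41.9 and 43.1 in wild type at 48 h, 22.2 and 29.3 in the knockout in 2iL and 31.7 and 30.02 in the knockout at 48 h. It rose over 48 h in wild type by a log2 difference of 0.48 (adjusted p = 0.00979), lost without wild-type 2iL replicate 1 (adjusted p = 0.0577), and was lower in the knockout at 48 h by a log2 difference of -0.45 (adjusted p = 0.00966), lost without knockout 48 h replicate 2 (0.0506). Of the base chaperones, Psmd5 was at 31.0 and 32.0 FPKM in the wild-type 2iL libraries, 33.8 and 32.8 in wild type at 48 h, 28.3 and 32.0 in the knockout in 2iL and 42.2 and 39.7 in the knockout at 48 h, with the knockout 48 h pair above all other libraries. It rose in the knockout by a log2 difference of 0.43 (adjusted p = 0.00147) and exceeded wild type at 48 h by a log2 difference of 0.29 (adjusted p = 0.00538). Psmd9 was at 11.8 and 10.6 FPKM in the wild-type 2iL libraries, 12.99 and 13.4 in wild type at 48 h, 9.25 and 9.56 in the knockout in 2iL and 9.12 and 8.56 in the knockout at 48 h, and was lower in the knockout at 48 h by a log2 difference of -0.53 (adjusted p = 0.000332). Psmd10 was not called in any comparison.

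**Figure D4:**
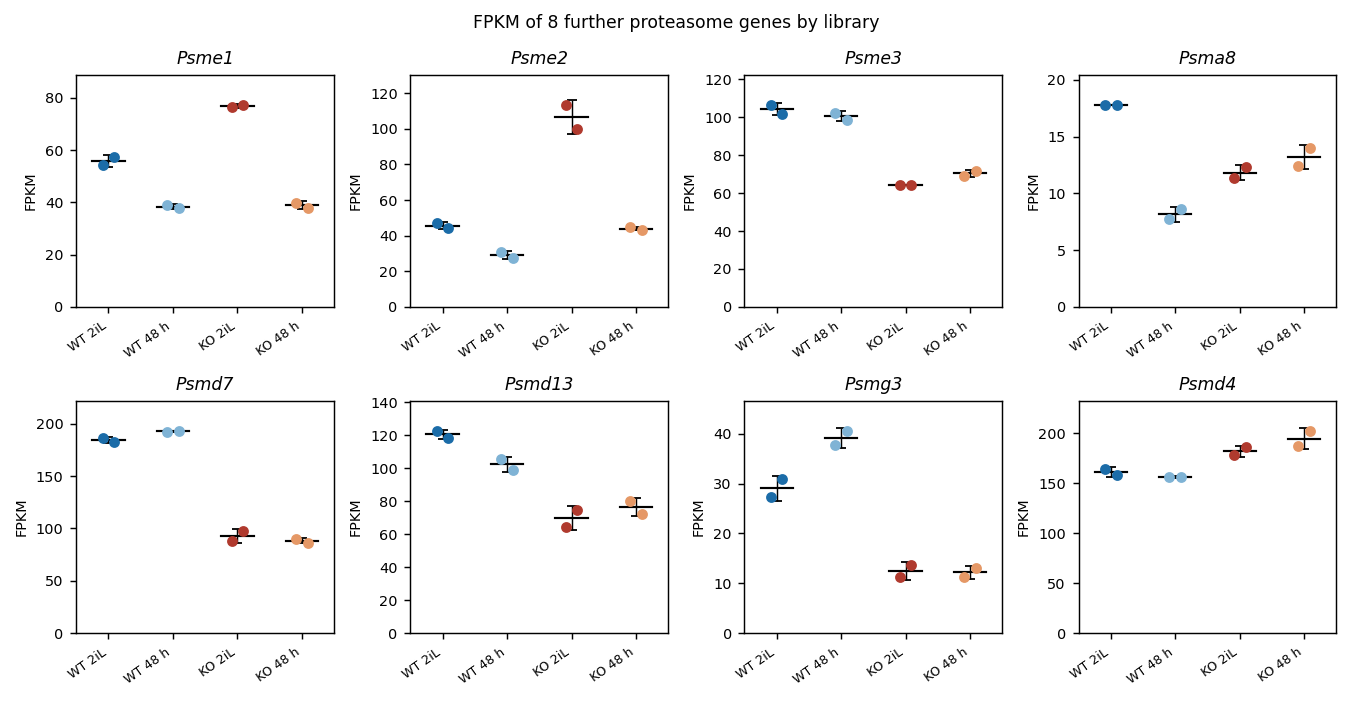
FPKM by library of 8 further proteasome genes in the 4 groups; points are libraries, lines group means and bars SD. Psme1 and Psme2 are highest in knockout 2iL, Psme3, Psmd7, Psmd13 and Psmg3 are lower in the knockout in both conditions, Psmd4 is higher there, and Psma8 is lowest in wild type at 48 h.

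Genes that work with the proteasome were read from lists, beside shares over all tested genes of 30.6% higher and 32.8% lower in knockout 2iL and 33.4% and 38.5% at 48 h. Of 10 partner genes 1 was higher and 4 lower in knockout 2iL, and 0 and 6 at 48 h. Pomp, the maturation factor of the core particle, was at 168 and 175 FPKM in the wild-type 2iL libraries, 208 and 192 in wild type at 48 h, 91.0 and 108 in the knockout in 2iL and 124 and 114 in the knockout at 48 h, lower in the knockout by a log2 difference of -0.79 (adjusted p = 0.00017) in 2iL and, at 48 h, of -0.74 (adjusted p = 0.000161). Ecpas, which binds the finished proteasome, was at 6.13 and 7.35 FPKM in the wild-type 2iL libraries, 17.3 and 19.1 in wild type at 48 h, 12.6 and 13.1 in the knockout in 2iL and 11.6 and 9.03 in the knockout at 48 h, and rose over 48 h in wild type by a log2 difference of 1.31 (adjusted p = 9.45e-05). Of 9 regulators 4 were higher and 2 lower in the knockout in each condition. Nfe2l1, the factor that drives proteasome genes when the proteasome is short, was at 66.7 and 67.7 FPKM in the wild-type 2iL libraries, 87.4 and 85.2 in wild type at 48 h, 71.2 and 70.7 in the knockout in 2iL and 55.9 and 56.3 in the knockout at 48 h, lower in the knockout at 48 h by a log2 difference of -0.61 (adjusted p = 5.67e-06). Ddi2, the protease that cleaves it into its active form, was lower by a log2 difference of -0.70 (adjusted p = 4.82e-05) in 2iL and, at 48 h, of -0.78 (adjusted p = 1.76e-05). Nfe2l2, the oxidative stress factor related to Nfe2l1, was at 31.1 and 31.1 FPKM in the wild-type 2iL libraries, 24.4 and 24.2 in wild type at 48 h, 41.3 and 43.4 in the knockout in 2iL and 42.5 and 41.2 in the knockout at 48 h. It was higher in the knockout by a log2 difference of 0.43 (adjusted p = 0.000129) in 2iL and, at 48 h, of 0.76 (adjusted p = 5.40e-06). Nfe2l3, another relative, was at 0.286 to 0.589 FPKM in wild type and 1.23 to 1.63 in the knockout, the libraries through which it passed the filter. Of 15 genes for ubiquitin and its delivery 2 were higher and 7 lower in knockout 2iL, and 3 and 7 at 48 h.

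Antigen presentation and interferon genes were read beside the immunoproteasome. Beside the same shares over all tested genes (30.6% higher in 2iL and 33.4% at 48 h, 32.8% and 38.5% lower), of 10 tested antigen presentation genes 6 were higher and 1 lower in knockout 2iL and 4 and 2 at 48 h. Erap1 and Tap2 passed the filter only through knockout libraries, so any part they have in these counts is a description only. Tap1, which shares its start region with Psmb9, was at 0.328 and 0.224 FPKM in the wild-type 2iL libraries, 4.76 and 3.72 in wild type at 48 h, 1.68 and 1.13 in the knockout in 2iL and 5.21 and 6.03 in the knockout at 48 h. It rose over 48 h in both genotypes, by a log2 difference of 2.03 (adjusted p = 2.60e-05) in wild type and 1.47 (adjusted p = 0.000203) in the knockout. At 48 h the knockout's Tap1 difference was 0.34 (95% confidence interval -0.01 to 0.69, adjusted p = 0.0753), called higher at equal totals (adjusted p = 0.0435) and without wild-type 48 h replicate 1 (0.0486). H2-K1, a class I antigen gene, was at 5.35 and 7.24 FPKM in the wild-type 2iL libraries, 39.6 and 40.0 in wild type at 48 h, 2.28 and 2.42 in the knockout in 2iL and 3.53 and 3.09 in the knockout at 48 h. Tapbp, which helps load peptides on class I antigens, was at 8.96 and 8.79 FPKM in the wild-type 2iL libraries, 3.71 and 4.00 in wild type at 48 h, 39.1 and 43.0 in the knockout in 2iL and 15.9 and 14.7 in the knockout at 48 h. Their orders were opposite, H2-K1 lower and Tapbp higher in the knockout in both conditions.

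Of 8 tested interferon response genes 7 were higher and 1 lower in knockout 2iL and 6 and 1 at 48 h, where 30.6% and 33.4% of all tested genes were higher and 32.8% and 38.5% lower. Over 48 h 2 rose and 5 fell in wild type and 2 rose and 6 fell in the knockout, against 30.9% and 25.6%, and 26.5% and 21.9%, of all tested genes. Gbp2, Igtp and Oasl2 passed the filter only through knockout libraries. Their part in the counts that involve the knockout follows from how they were admitted and is a description only. Irf1, a transcription factor of the interferon response, was at 16.1 and 16.0 FPKM in the wild-type 2iL libraries, 7.64 and 6.77 in wild type at 48 h, 36.7 and 38.8 in the knockout in 2iL and 20.8 and 18.6 in the knockout at 48 h. It was higher in the knockout by a log2 difference of 1.18 (adjusted p = 1.51e-05) in 2iL and, at 48 h, of 1.34 (adjusted p = 4.69e-06), and fell over 48 h by a log2 difference of -1.06 (adjusted p = 2.33e-05) in wild type and -0.91 (adjusted p = 8.07e-05) in the knockout. Irf1, like Psme2, was highest in knockout 2iL and lowest in wild type at 48 h, whereas Psmb10 was lowest in the knockout at 48 h. Whether these genes have a part in the proteasome differences was not tested.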

How the data were processed

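RNA-seq of 8 libraries, 2 in each of 4 groups, was read from 1 table of FPKM values that the authors deposited, one value per gene and library. Per the submitters' processing notes STAR 2.5.0, Cufflinks 2.2.1 and build mm10 were used; annotation and strand setting are not given in the sources used here, so genes overlapping others (among the members Psma3, Psma4, Psma6, Psmb5, Psmb7, Psmc5, Psmd1, Psmd10, Psmd13, Psme1, Psme2b, Psme4 and Psmf1) may share reads. Per the labels' protocols, libraries were of the dUTP kind from Trizol RNA; the labels call the molecule polyA RNA and the series text total RNA. The first entry of 56 repeated Ensembl IDs was kept, and 1131 IDs had no symbol. limma 3.58.1 in R 4.3.3 was fitted with an intensity trend to log2(FPKM + 1) of 13166 genes at 1 FPKM or more in at least 2 libraries, over the 4 groups without a block (4 residual degrees of freedom); p was adjusted by Benjamini-Hochberg over all of them and called below 0.05. The fit was tested on simulated data, where it recovered 87% of 200 genes given a log2 change of 1 in wild type at 48 h. Smaller changes were not simulated. Shares and motifs were computed in Python 3.11.15 with pandas 2.3.3 and scipy 1.17.1, and figures drawn with matplotlib 3.10.9. Named were the 6 catalytic genes, the 10 largest called differences per comparison, each role's highest and lowest member, members under the filter, and from each pathway list up to 4 of the largest called differences; others named in the text were chosen after their values were seen. Members and lists were chosen with earlier results of these data known. Alternatives changed the pseudocount, filter, scaling, block, trend, groups in the fit and libraries kept. The series' 8 small RNA libraries were not used here.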

Additional observations from a re-analysis of the deposited data

Results flagged for a closer look

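The 48 h changes of the genotypes differed, by limma's interaction test over all 13166 genes at an adjusted p of 0.05, for 20 of the 48 tested members; values are the knockout's change minus the wild type's on the log2(FPKM + 1) scale. Among the immunoproteasome subunits the difference was -1.24 for Psmb8, -1.24 for Psmb9 and -0.78 for Psmb10. Psmb8 passed the filter on low values only through knockout 2iL and Psmb9 only through wild type at 48 h, so their negative values follow from how they were admitted and are a description only. Among the activators it was -0.44 for Psme1, -0.62 for Psme2 and 0.18 for Psme3, and Psme3 lost its call under 14 of 16 alternatives. The testis form Psma8 had 1.19. In the inner rings it was 0.28 for Psmb2 and 0.26 for Psmb3, each lost under 7 of 16 alternatives. The base ATPases had 0.25 (Psmc1), 0.2 (Psmc3), 0.22 (Psmc4) and 0.28 (Psmc5), lost under 6 alternatives for Psmc1, 6 for Psmc3 and 1 for Psmc5, and the scaffolds of the base 0.32 (Psmd1) and 0.28 (Psmd2). In the lid it was 0.2 for Psmd11, 0.37 for Psmd13 and 0.27 for Psmd14, lost under 7, 9 and 6 alternatives. The base chaperones went opposite ways, with 0.35 for Psmd5, lost under 3 alternatives, and -0.3 for Psmd9, lost under 11. The share of all tested genes with such a difference was 42.9%.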

How the results depend on the processing

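With 2 libraries a group and depth not known in reads, small differences and members near 1 FPKM (Psmb8, Psmb9, Psme2b) were the least precise. Of 221 differences of named genes, 155 kept their direction and side of the threshold under every alternative run; of 3677 alternative values 234 lost a call, 24 gained one and 23 changed sign. Psmb8 and Psmb9 were not tested at a mean of at least 5 FPKM. The cause of these changes was not tested.

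Wild-type 48 h counts were 22 lower with median-ratio scaling and 11 higher with quantile normalization or equal totals, the last an alternative chosen after seeing the data; leaving out 1 library gave 9 to 23 in all, 2 to 8 higher and 6 to 15 lower. Knockout 48 h counts were 28, with 21 higher, at equal totals, and 9 to 17 higher on leaving out 1 library. Members higher in knockout 2iL were 4 at the stricter filter and 3 to 7 on leaving out 1 library; at 48 h 13 were higher with quantile normalization and 11 at equal totals. The interaction gave 12, with 6 positive, without the trend, and 8 to 21, with 4 to 17 positive, on leaving out 1 library.

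In the order wild-type 2iL, wild-type 48 h, knockout 2iL and knockout 48 h, the immune share was 0, 0.213, 1.34 and 0.528% for Psmb8 with Psmb5, 0.0355, 0.491, 0.23 and 0.236% for Psmb9 with Psmb6, and 7.24, 8.12, 5.15 and 3.18% for Psmb10 with Psmb7. Against Psmb1 to Psmb4 it was 1.9% in wild-type 2iL, 1.61% in knockout 2iL and 1.04% in the knockout at 48 h. Leaving out 1 library gave 2.07 to 2.32%, 2.67 to 2.91%, 1.87 to 2.13% and 1.09 to 1.24%.

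Signs changed for calls in the genotype comparison with quantile normalization, to 0.0855 for Psma6 in 2iL and at 48 h to 0.0459 for Psmd1, 0.1042 for Psmd2, 0.1113 for Psmc3 and 0.0346 for Psmc5. At equal totals they changed at 48 h to 0.027 for Psmd1, 0.0344 for Psmd2 and 0.0646 for Psmc3. The others were near 0 and not called: Psmb5 in wild type over 48 h -0.0673 (median-ratio), -0.0236, -0.0004 and up to 0.044 (1 library left out), Psmb6 there -0.0063 (median-ratio), Psmb5 in the knockout over 48 h -0.0167 (median-ratio), -0.0581, -0.0194 and up to 0.1325 (1 library left out), Psmb9 there -0.0665 (quantile) and -0.079 up to 0.283 (1 left out), and in the interaction Psmb5 -0.0201 (quantile), -0.0068, -0.0683, -0.0296 and up to 0.1223 (1 left out) and Psmb7 -0.0219 (quantile) and -0.0268 up to 0.1215 (1 left out).

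Same-numbered libraries did not deviate together (correlations of -0.153 to 0.18 between pairs of groups), so the numbers were not taken as pairs. With a replicate block the counts were 6 higher and 10 lower for wild type over 48 h, 9 and 7 for the knockout, 7 and 33 for the genotypes in 2iL, 4 and 29 at 48 h, and 12 and 6 for the interaction.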
